A study of Mus musculus with 22 samples.

Results

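H/ACA small nucleolar RNAs (snoRNAs) fold into hairpins, assemble with dyskerin and its partner proteins, and base-pair with ribosomal or other RNAs to place pseudouridines. Most vertebrate snoRNAs are released from introns of host genes, and some H/ACA snoRNAs act in cleavage of the ribosomal RNA precursor instead of guiding a modification. The account below concerns 6 H/ACA snoRNAs that the data list only by Ensembl transcript ID and that were low in spermatogonial stem cells (SSCs), which renew themselves and give rise to sperm. They were chosen from features whose mean log2(value + 1) in SSCs was below the mean of NIH3T3, RAW264.7 and embryonic stem cells (ESCs) at day 0, so their low level in SSCs is the choice and not a finding. They are 6 of 72 features, of which 38 carry an Ensembl ID. No source used here pairs any of the 38 IDs with a snoRNA name, a host gene or a target site, so the 6 are called by ID.

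Expression was measured with a custom nCounter code set, in which colour-coded probes hybridised to RNA are counted without amplification. The 22 samples form 7 groups. They are primary SSCs (n = 4), the fibroblast line NIH3T3 (n = 3), the macrophage line RAW264.7 (n = 3), ESCs of an aMHC-puro line at day 0 of differentiation (n = 3), and cardiomyocytes from the line after puromycin selection, at day 16 (n = 3). A pair of further ESC groups, here called set A and set B (n = 3 each), belongs to an experiment with retinoic acid. The study design names E14Tg2a as its ESC line. In an aMHC-puro line the promoter of a cardiac myosin heavy chain gene drives puromycin resistance. For these sets the labels contradict each other. Set A is described as untreated at time 0 but titled as retinoic acid treated, and set B is described as treated at time 6 but titled as plain ESCs. The sets are therefore compared as B against A, and which of them received retinoic acid is not settled here. Myoblasts, which the study design also names, were not analysed here, and no genotype, strain or donor of the SSCs is given. The assay holds snoRNAs only, so no cell type could be checked against marker genes.

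Values are normalized counts, the unit of the deposited table. The sum over all features lay between 1045169 and 1668320 per sample, lowest in SSCs (1045169 to 1314424) and cardiomyocytes (1137064 to 1317794). The fewest whole counts behind any value of the 6 snoRNAs were 268 (ENSMUST00000104426 in cardiomyocyte replicate 2), with a counting error of 6.11%, so the spread between samples and not counting sets the precision. SSCs, NIH3T3 and RAW264.7 lie in a part of the table in which 5 features are blank, and the 4 ESC and cardiomyocyte groups in a part without blanks. Table part cannot be told apart from cell type in any comparison between groups of different parts. Day 16 against day 0, set B against set A, and RAW264.7 against NIH3T3 each lie within a single part. The labels do not call the replicates separate cultures or animals. The p-values therefore rest on a spread among samples that may be technical.

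The condition of the rule held for 19 of the 34 Ensembl-listed features without blanks (55.9%), and for 36 of all 67 features without blanks (53.7%). By the difference between SSCs and the mean of the other 3 types, 5 of the 6 were the lowest of the 34. ENSMUST00000104426 (listed as ENSMUST00000104426.1:18) was 3.53-fold lower (log2 difference −1.82), ENSMUST00000083331 (ENSMUST00000083331.1:0) 3.32-fold lower (−1.73) and ENSMUST00000083274 (ENSMUST00000083274.1:37) 3.10-fold lower (−1.63). ENSMUST00000083015 (ENSMUST00000083015.1:19) was 2.46-fold lower (−1.30) and ENSMUST00000082493 (ENSMUST00000082493.1:0) 2.12-fold lower (−1.09). ENSMUST00000083061 (ENSMUST00000083061.1:10) ranked 8 with a log2 difference of −0.77, behind ENSMUST00000104376 (−0.82) and ENSMUST00000093658 (−0.81), which are not among the 6. At the threshold of 0 itself, ENSMUST00000082579 lay just below (−0.02) and ENSMUST00000104238 just above (0.35). These values used the samples of the choice and carry no test.

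**Figure D1:**
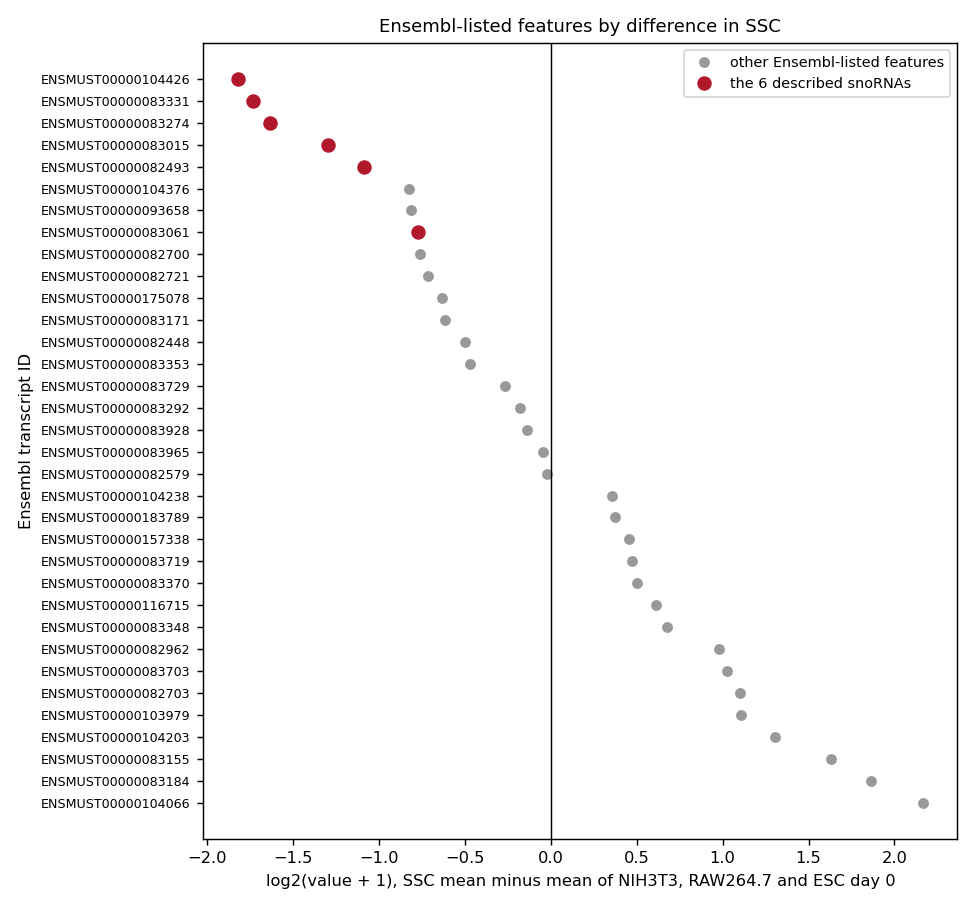
The 34 Ensembl-listed features without blanks (vertical axis, transcript IDs), placed by the difference in mean log2(value + 1) between SSCs and the mean of NIH3T3, RAW264.7 and ESCs at day 0 (horizontal axis). The 6 described snoRNAs are red, from −1.82 to −0.77, and the others grey.

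Across all 7 groups the 6 snoRNAs followed 2 patterns. ENSMUST00000083274, ENSMUST00000104426, ENSMUST00000083331 and ENSMUST00000083061 were abundant in ESCs at day 0, ESC set A and RAW264.7, and low in set B. Most cardiomyocyte samples lay below those abundant groups, but for ENSMUST00000083331 replicate 1 lay above all day 0 and set A samples. ENSMUST00000083015 and ENSMUST00000082493 had all SSC samples below all other samples, those of cardiomyocytes and of both ESC sets included. For both, cardiomyocyte samples overlapped those of NIH3T3. For ENSMUST00000082493, RAW264.7 was the next lowest group after SSCs. This division was made after the values were seen.

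For ENSMUST00000083274, SSC samples 1 to 4 held 12505, 15201, 16853 and 14091 normalized counts. NIH3T3 held 30347, 33260 and 38602, and RAW264.7 held 41872, 46256 and 44432. The SSC samples lay below every sample of both lines, without overlap. ESCs at day 0 held 47857, 75071 and 65365 normalized counts in replicates 1, 2 and 4, and set A held 48120, 66104 and 51437 in replicates 1, 3 and 4. Cardiomyocyte replicates 1, 2 and 4 held 40405, 7960 and 16949, and set B replicates 1, 4 and 3 held 31142, 6623 and 15244. Both latter groups spread widely and overlapped SSCs, and replicate 1 of each lay within or above the NIH3T3 range. As a share of each sample's total over the 67 features, which no scaling factor per sample can move, ENSMUST00000083274 made up 1.22% in SSCs, 1.14% in set B, 1.74% in cardiomyocytes, 3.93% in set A and 4.02% in ESCs at day 0 (group means).

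For ENSMUST00000104426, SSC samples held 398, 480, 618 and 480 normalized counts, and NIH3T3 samples 722, 954 and 908. RAW264.7 held 2882, 2588 and 2692, ESCs at day 0 held 2459, 2252 and 1955, and set A held 2216, 2809 and 2901. These 3 groups overlapped their neighbours in order of level and lay above all other groups. Cardiomyocytes held 1027, 327 and 818 normalized counts, and set B replicates 1, 4 and 3 held 766, 370 and 325. SSCs, cardiomyocytes and set B overlapped each other, and the group means of the log2 values spanned 6.01-fold.

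ENSMUST00000083331 had the widest range of the 6, 8.92-fold between group means of the log2 values. It was highest in RAW264.7, with 14731, 15387 and 14488 normalized counts, above every other sample. ESCs at day 0 held 8834, 11362 and 10172, and set A held 10801, 11239 and 9091. NIH3T3 held 4534, 5307 and 5591 normalized counts and SSCs 2416, 2050, 3992 and 2937. Set B was the lowest group, with 1862, 1930 and 1285 in replicates 1, 4 and 3, below all SSC samples. Cardiomyocytes spanned nearly the whole range, at 12414, 1742 and 6183 normalized counts (SD 1.44 on the log2 scale, against a median of 0.39 over the 67 features in that group).

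ENSMUST00000083061 was also highest in RAW264.7, at 4441, 4344 and 4058 normalized counts. ESCs at day 0 held 3854, 3221 and 3330, and set A held 2620, 3025 and 2861. RAW264.7, ESCs at day 0 and set A did not overlap each other. SSCs held 2084, 1492, 1544 and 1422 normalized counts and overlapped NIH3T3 at 1386, 1355 and 1538, whose mean was lower (log2 10.48 against 10.66). Of the 6 snoRNAs it was the one in which SSCs were not the lowest of the 4 types of the rule. Set B held 1134, 887 and 1170, and cardiomyocytes held 1505, 523 and 1205. Both were below SSCs in mean level, and the cardiomyocyte samples overlapped SSCs while those of set B did not.

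ENSMUST00000083015 was low in SSCs against all other groups. SSC samples held 4693, 3418, 3436 and 2554 normalized counts, and the lowest of the 18 other samples held 6451. The other 6 groups formed a narrow ladder of overlapping neighbours. ESCs at day 0 held 13059, 9678 and 9826, set A 10396, 9206 and 10021, cardiomyocytes 10362, 6997 and 8609. Set B held 6573, 8615 and 9184, NIH3T3 8750, 6451 and 7979, and RAW264.7 7287, 7615 and 7158.

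ENSMUST00000082493 was likewise lowest in SSCs, at 13584, 11143, 9678 and 8329 normalized counts. The gap was small, since RAW264.7 held 13797, 16756 and 14466. All 4 SSC samples lay below all 18 others in 4 of 67 features (5.97%), among them these 2; that count uses the SSC samples of the choice and nothing is read from it. Group by group, all SSC samples lay below all NIH3T3 samples in 5 of the 6 (34.3% of the 67 features), below all RAW264.7 samples in 6 (40.3%) and below all day 0 samples in 6 (34.3%). They lay below all set A samples in 6 of the 6 (32.8%), below all set B samples in 2 (26.9%) and below all cardiomyocyte samples in 2 (10.4%). All these counts reuse the SSC samples that chose the 6, and those against NIH3T3, RAW264.7 and day 0 also reuse the groups of the rule. Nothing is read from them or from their distance to the shares. For ENSMUST00000082493, set B was the highest group, with 34577, 43239 and 42340 normalized counts, above every other sample. ESCs at day 0 held 33831, 29179 and 27330, cardiomyocytes 28325, 19550 and 25537. NIH3T3 held 24273, 24065 and 26036 and overlapped set A at 25147, 25274 and 23757.

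**Figure D2:**
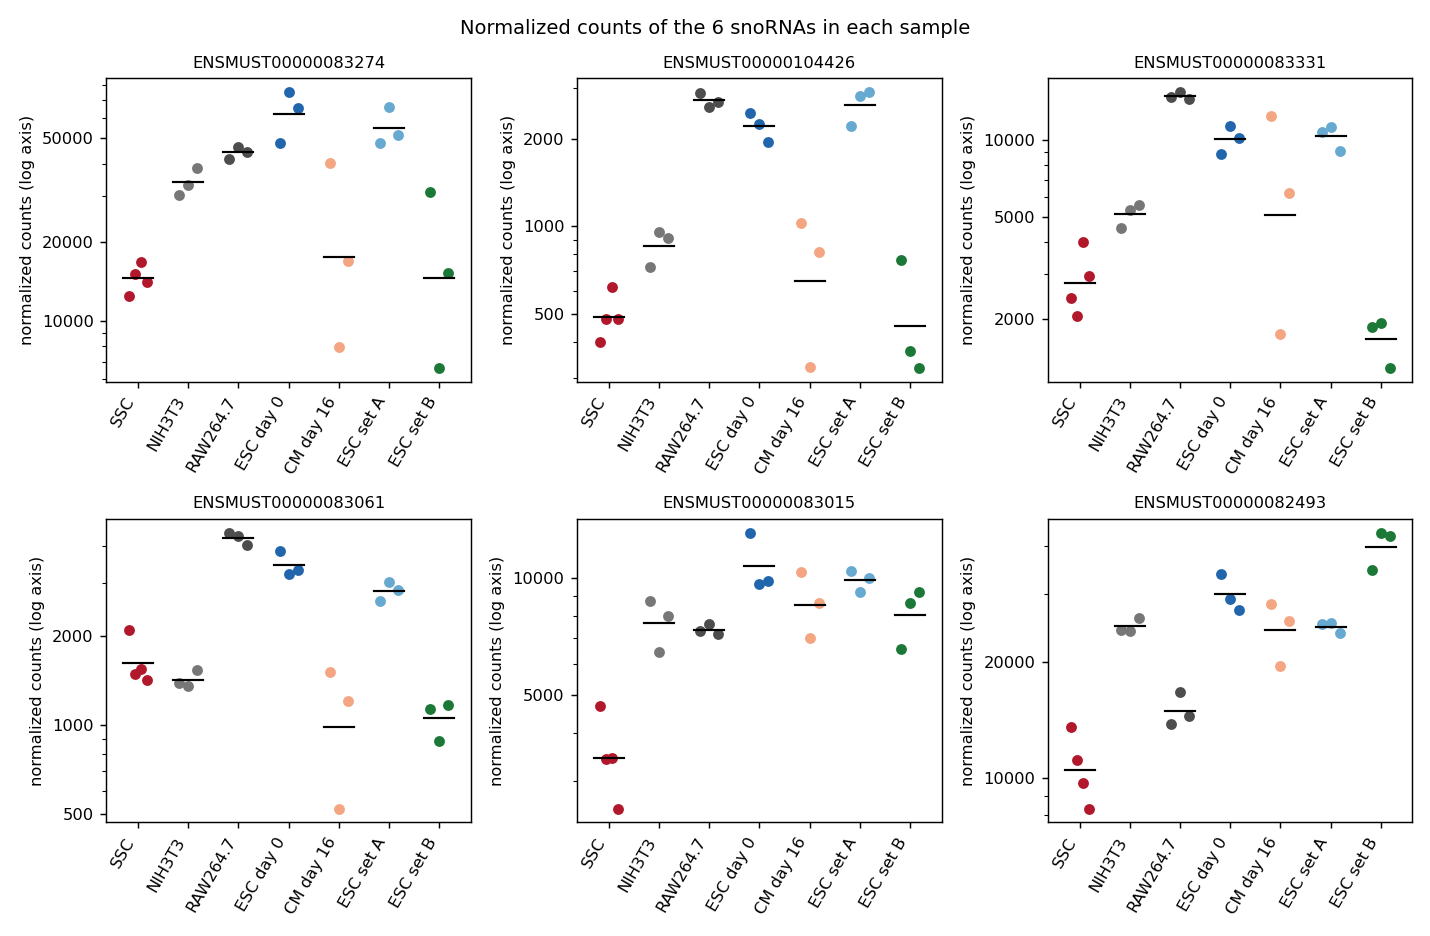
Normalized counts (vertical log axis) of the 6 snoRNAs in each of the 22 samples, by group (horizontal axis). Points are samples and black lines are means of the log2 values. The first 4 panels share high levels in RAW264.7, ESCs at day 0 and set A, and the last 2 have SSCs below all other samples.

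The first test asked whether the 6 also differ between cardiomyocytes at day 16 and ESCs at day 0. ENSMUST00000083061 fell 3.52-fold (log2 difference −1.81 ± 0.40 SE) and ENSMUST00000104426 fell 3.40-fold (−1.77 ± 0.43, adjusted p 0.032), in limma with Benjamini-Hochberg adjustment over all 72 features. In both, all 3 cardiomyocyte samples lay below all 3 day 0 samples. That makes 2 of 6 lower and 0 higher, where 22 of 72 features passed (30.6%), 21 lower (29.2%) and 1 higher (1.39%). All day 16 samples lay below all day 0 samples in 3 of the 6 (45.8% of features) and above them in 0 (6.94%), so 3 were without overlap (52.8%). The ESCs at day 0 were 1 of the 3 types that the choice required to be high on average, so this test is not fully independent of it. ENSMUST00000083061 met the rule through these ESCs and RAW264.7 (log2 difference of SSCs −1.10 and −1.40) and not through NIH3T3 (0.18). Its fall is therefore given as a description only, although it is counted among the 2. Nothing is read from these counts or from their distance to the shares.

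ENSMUST00000083274 was 3.51-fold lower at day 16 (−1.81 ± 0.57) without overlap, but did not pass (adjusted p 0.053). ENSMUST00000083331 did not pass either (−0.98 ± 0.67, adjusted p 0.30, 95% interval −2.59 to 0.64), with cardiomyocyte replicate 1 above all 3 day 0 samples and replicate 2 the lowest. ENSMUST00000083015 (−0.33, 95% interval −0.88 to 0.22) and ENSMUST00000082493 (−0.31, −0.82 to 0.19) did not pass (adjusted p 0.30 each) and overlapped. The median log2 difference of the 6 was −1.37, beside −0.51 over all 72 features. The latter depends on the scaling: it was 0.38 after median centring, and the calls over all features were then 6 higher and 0 lower, after quantile normalization 3 higher and 0 lower.

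Cardiomyocyte replicate 2 was the lowest and replicate 1 the highest of the 3 in each of the 6 snoRNAs, and total normalized counts were 1317794, 1137064 and 1173855 in replicates 1, 2 and 4. The part of the total in the result was not tested. With each sample centred on its mean log2 value, ENSMUST00000083061 stood at −1.31 and ENSMUST00000104426 at −1.27 (adjusted p 0.061 for the latter), and none of the 6 passed. None passed after median centring or quantile normalization either, where the adjusted p of ENSMUST00000104426 was 0.13 and 0.10. After median centring ENSMUST00000083061 stood at −0.92 and ENSMUST00000104426 at −0.87, and after quantile normalization at −1.40 and −1.44. In all 3 scalings, 0 of the 72 features were lower at the adjusted threshold in limma. None of the 6 passed without cardiomyocyte replicate 4 or without day 0 replicate 1, 2 or 4. Without cardiomyocyte replicate 1, ENSMUST00000083274 passed as well (log2 difference −2.41, adjusted p 0.0086).

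The second test compared the ESC sets, none of whose samples entered the rule. The 6 were chosen with earlier results of these data known, so full independence of the choice from these sets is not shown. In set B, 4 of the 6 were lower and 1 was higher, where limma called 33 of 72 features (45.8%), 12 lower (16.7%) and 21 higher (29.2%). After mean centring these were 14 lower and 12 higher, and after quantile normalization 10 and 10. ENSMUST00000083331 was 6.20-fold lower in set B (−2.63 ± 0.20, adjusted p 0.00029), at 1692 ± 354 against 10377 ± 1135 normalized counts (SD, n = 3 each). ENSMUST00000104426 was 5.80-fold lower (−2.54 ± 0.35, adjusted p 0.0029) and ENSMUST00000083061 2.68-fold lower (−1.42 ± 0.15, adjusted p 0.0011). ENSMUST00000083274 was 3.73-fold lower with a wide error (−1.90 ± 0.57, adjusted p 0.042). In each of these 4, every set B sample lay below every set A sample (23.6% of all features).

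ENSMUST00000082493 moved the other way and was 1.61-fold higher in set B (0.69 ± 0.12, adjusted p 0.0078), with all 3 samples above those of set A (31.9% of features). ENSMUST00000083015 did not pass (−0.29 ± 0.16, adjusted p 0.20, 95% interval −0.69 to 0.10), although its set B samples lay below those of set A. All 6 were thus without overlap, where 40 of 72 features were (55.6%). The median of the 6 was −1.66, beside 0.16 over all 72 features.

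The lower levels of ENSMUST00000083331, ENSMUST00000104426 and ENSMUST00000083061 passed in every alternative run. ENSMUST00000083274 did not pass without set B replicate 3 or without set A replicate 1, 3 or 4. The highest adjusted p without 1 sample was 0.12. ENSMUST00000082493 did not pass after median centring, mean centring or quantile normalization (adjusted p 0.064, 0.16 and 0.054).

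The third test compared both effects with their signs, day 16 minus day 0 less set B minus set A, over 12 samples. Its outcome depends on taking the sets as B minus A. The labels do not settle that order, and the reverse order was not tested. ENSMUST00000082493 differed (−1.0 ± 0.23, adjusted p 0.024), where 17 of 72 features did (23.6%), all 17 lower. The median over all 72 features was −0.64, beside 0.03 for the 6. The day 0 samples, which the choice required to be high on average, enter this test too, so it is not fully independent of the choice. Its effect was −0.31 in the first and 0.69 in the second comparison. After median or mean centring or quantile normalization the difference was −0.30, −0.36 and −0.51 and did not pass, and it did not pass without day 0 replicate 2 or without set A replicate 1 or 3. ENSMUST00000083331 showed the largest difference of the 6 (1.66 ± 0.78) but did not pass (adjusted p 0.13, 95% interval −0.08 to 3.39). It passed without cardiomyocyte replicate 2 (2.43, adjusted p 0.0063). For ENSMUST00000083274 the difference was 0.09 with an interval of −1.85 to 2.03, too wide to tell the effects apart or alike.

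**Figure D3:**
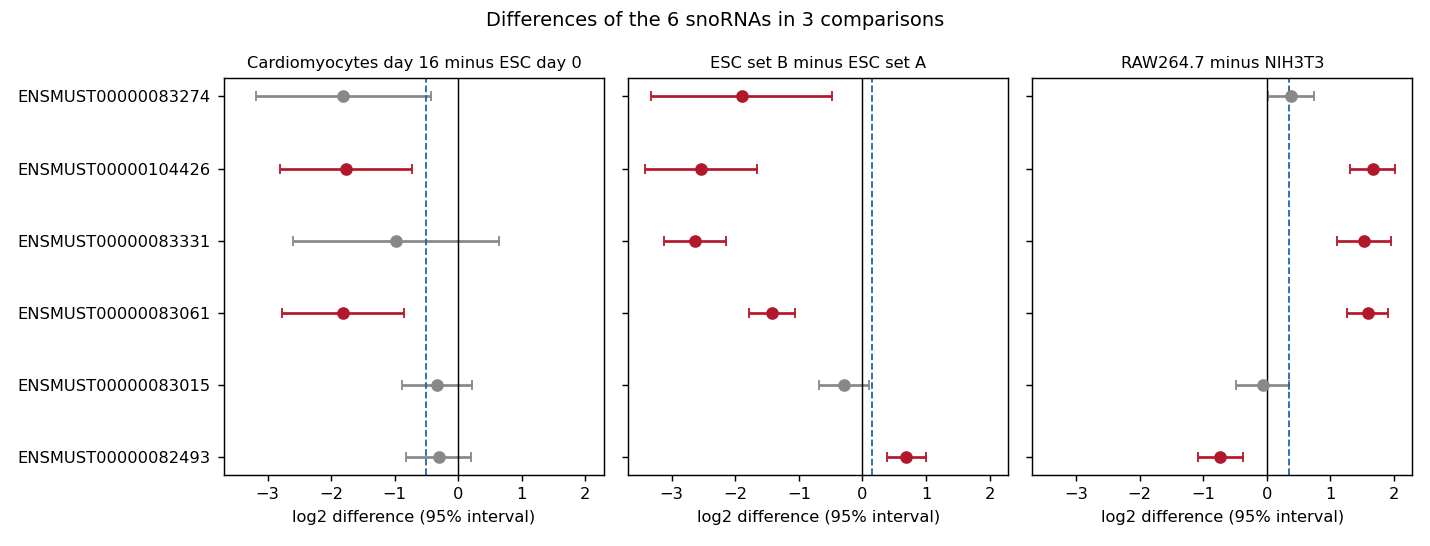
Log2 differences (horizontal axis) of the 6 snoRNAs (vertical axis) in 3 comparisons, with 95% intervals from limma; red points passed the adjusted p threshold of 0.05 and grey ones did not. The dashed line is the median over all features tested, at −0.51, 0.16 and 0.34 from left to right.

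The last test set RAW264.7 against NIH3T3. The choice used samples of both lines, through a mean in which they had the same weight, so this test is not independent of its samples. ENSMUST00000083061 met the rule through RAW264.7 and ESCs at day 0 (log2 difference of SSCs −1.40 and −1.10) and not through NIH3T3 (0.18), so its difference between the lines is given as a description only. In RAW264.7, 3 of the 6 were higher and 1 was lower, where 36 of 67 features passed (53.7%), 28 higher (41.8%) and 8 lower (11.9%). These were 18 higher and 13 lower after median centring, 17 and 16 after mean centring, and 16 and 11 after quantile normalization. ENSMUST00000104426 was 3.18-fold higher (1.67 ± 0.17, adjusted p 8.6e-07) and ENSMUST00000083331 2.90-fold higher (1.54 ± 0.20, adjusted p 1.6e-05). ENSMUST00000083061, counted among the 3, was 3.00-fold higher (1.59 ± 0.15). ENSMUST00000082493 was 1.66-fold lower (−0.73 ± 0.17, adjusted p 0.0017). None of these 4 overlapped between the lines, and the other 3, without ENSMUST00000083061, passed in every alternative run. All RAW264.7 samples lay above all NIH3T3 samples in 4 of the 6 (50.7% of features) and below them in 1 (13.4%), 5 without overlap (64.2%). ENSMUST00000083061 is counted here too, so nothing is read from these counts.

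ENSMUST00000083274 was 1.30-fold higher in RAW264.7 without overlap but did not pass (0.38 ± 0.17, adjusted p 0.072). After median and mean centring the difference was 0.07 and 0.06. It passed with the 6 samples of both lines alone (adjusted p 0.027) and without NIH3T3 replicate 3 (adjusted p 0.0497). ENSMUST00000083015 overlapped (−0.06, 95% interval −0.48 to 0.36, adjusted p 0.87). The median of the 6, with ENSMUST00000083061 included, was 0.96, beside 0.34 over all 67 features.

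The ratio of 2 of the snoRNAs within a sample does not depend on any factor per sample. Per 1000 normalized counts of ENSMUST00000082493, RAW264.7 held 154 to 209 of ENSMUST00000104426, set A 88.1 to 122 and ESCs at day 0 71.5 to 77.2. SSCs held 29.3 to 63.8, NIH3T3 29.7 to 39.7, cardiomyocytes 16.7 to 36.2 and set B 7.67 to 22.1. The ratio was thus lower in all set B than in all set A samples, and lower in all cardiomyocyte than in all day 0 samples. SSCs overlapped NIH3T3 and cardiomyocytes in this ratio. The pair was chosen after the values were seen, and the ratio carries no test.

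**Figure D4:**
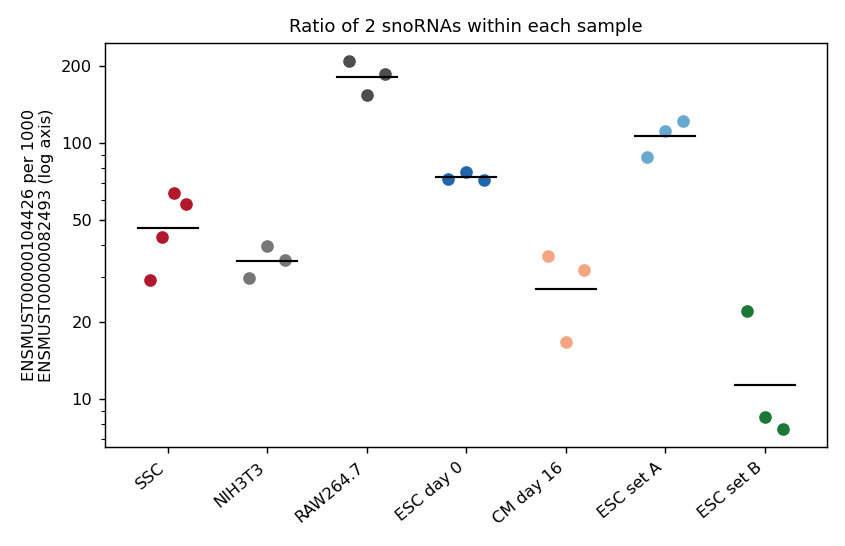
Normalized counts of ENSMUST00000104426 per 1000 of ENSMUST00000082493 (vertical log axis) in each sample by group (horizontal axis). Points are samples and black lines are means of the log2 ratios; RAW264.7 lies highest (154 to 209) and set B lowest (7.67 to 22.1).

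Over the 22 samples, Pearson's r of log2(value + 1) between the first 4 snoRNAs ran from 0.78 to 0.92, and between ENSMUST00000083015 and ENSMUST00000082493 it was 0.82. ENSMUST00000082493 had r between −0.14 and 0.18 with the first 4, but ENSMUST00000083015 between 0.28 and 0.51, so the patterns are not cleanly separate. These are descriptions, since samples of a group share their cells and all share the choice on SSCs. Among the 67 features, ENSMUST00000083274 was most like ENSMUST00000082700 (r = 0.90) and ENSMUST00000104426 (0.90). ENSMUST00000104426 and ENSMUST00000083331 were most like each other (0.92), and ENSMUST00000083331 next like Snora43 (0.88), whose host is the non-coding gene Snhg7. ENSMUST00000083061 was most like ENSMUST00000104376 (0.89).

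ENSMUST00000083015 was most like Snora73a (r = 0.92), the U17 RNA that acts in precursor cleavage, and Snora26 (0.83). ENSMUST00000082493 was most like Snora26 (0.94), hosted in human in the non-coding gene Dancr, and Snora73a (0.91). By Spearman's rho the nearest feature was another for ENSMUST00000083274, ENSMUST00000083061 and ENSMUST00000083015. These features showed differences of like direction in part. Snora43 was 3.59-fold lower in set B (−1.84 ± 0.10, adjusted p 0.00013 in limma). At day 16 it was 2.22-fold lower (adjusted p 0.11, not passing). Its log2 difference between SSCs and the mean of the types of the rule was −1.96, below that of ENSMUST00000104426 (−1.82), and carries no test. ENSMUST00000104376 was 4.98-fold lower in set B (−2.32 ± 0.60, adjusted p 0.027) and 6.39-fold lower at day 16 (adjusted p 0.053, not passing). ENSMUST00000082700 fell 2.49-fold at day 16 (adjusted p 0.040) and did not pass between the sets (−0.90, adjusted p 0.14). Snora73a and Snora26 were lower in RAW264.7 than in NIH3T3 (−0.59 and −0.76, adjusted p 0.0040 and 0.0033), as ENSMUST00000082493 was, but did not pass between the sets (0.08 and 0.09, adjusted p 0.66 and 0.52).

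Beside the 6, the other 32 Ensembl-listed features had 7 lower and 0 higher at day 16, 3 lower and 12 higher in set B, and, of 28 without blanks, 1 lower and 14 higher in RAW264.7. The 34 RefSeq-listed snoRNAs had 12 lower and 1 higher at day 16 and 5 lower and 8 higher in set B, and the 33 without blanks had 6 lower and 11 higher in RAW264.7. Of 9 listed snoRNAs hosted in non-coding Snhg genes 7 were measured. At day 16, 5 of them were lower (29.2% of all features), in set B 3 were lower (16.7%), and in RAW264.7 1 was higher (41.8%) and 2 were lower (11.9%), with medians of −0.68, −0.40 and −0.03 on the log2 scale.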

How the data were processed

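Per the labels, RNA was extracted with Trizol, DNase treated and column purified. The deposited table holds a signal that is never negative, called normalized counts throughout. The sources used here give neither the authors' normalization nor their software or background treatment. In each sample 100% of the deposited values were whole multiples of 1 step (0.900 to 1.22, tolerance 0.02), which gave 932203 to 1547009 whole counts per sample. No replicates of a group agreed within counting noise (chi-square over degrees of freedom at least 18.3).

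The 6 snoRNAs and the lists were chosen with earlier results of these data known. RefSeq accessions were matched to the RefSeq table of GRCm38.p6 (34 of 34); none of the 38 Ensembl IDs matched, and no sequence of the 6 was at hand. Tests used log2(value + 1) without a filter or further scaling, with limma 3.58.1 in R 4.3.3 (two-sided moderated test after eBayes, Benjamini-Hochberg over all features tested, threshold 0.05), and were tested on simulated data. The fits of day 16 against day 0 and of the ESC sets took 6 samples each over 72 features, their difference 12, and RAW264.7 against NIH3T3 in 1 model of the 4 types (13 samples, 67 features). The named features are the 6, the 2 most alike for each by Pearson's r, and those beside the threshold; ENSMUST00000104376 and ENSMUST00000093658 were also named in the ranking for lying between the 6.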

Additional observations from a re-analysis of the deposited data

Results flagged for a closer look

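ENSMUST00000082493 is given because a test of the difference itself separated the 2 ESC comparisons: its effect at day 16 minus that in set B against set A was −1.0 on the log2 scale (adjusted p 0.024 in limma). The sets are taken here as B minus A, an order that the labels do not settle, and the reverse order was not tested. The median of this difference over all 72 features was −0.64, and the day 0 samples in it had been used by the choice, which required them to be high on average. Levels overlapped between day 16 and day 0 and did not between the sets. None of the 6 snoRNAs had an SSC sample beyond the outlier limit for 4 samples, the closest being ENSMUST00000083061, with a gap of 0.815 of its range.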

How the results depend on the processing

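All 6 snoRNAs stayed below the mean of the other 3 types in SSCs under every alternative run, also with SSC samples 2, 3 and 4, whose descriptions share a number, averaged. At day 16 against day 0, 2 of the 6 passed, counting ENSMUST00000083061, which is given as a description only. The 2 became 0 after median centring, mean centring and quantile normalization, and 0 to 3 without 1 sample. Over all 72 features 22 passed, against 6 after median centring, 3 after quantile normalization, 38 with all 7 groups in the fit, 8 with the replicate block, 0 after mean centring (22 at an unadjusted p under 0.05 in limma) and 0 to 34 without 1 sample. In set B against set A, 5 of the 6 passed, 3 with the replicate block by either numbering and 4 to 5 without 1 sample. Over all features 33 passed, 20 after quantile normalization, 14 with the replicate block, 15 with title numbers, and 17 to 36 without 1 sample. For the difference of both effects, 1 of the 6 passed, 0 in each of the 3 scalings, 2 with all 7 groups, and 0 to 2 without 1 sample. Over all features 17 passed, 0 in each scaling (6, 10 and 8 at an unadjusted p under 0.05), 31 with all 7 groups, and 1 to 20 without 1 sample. In RAW264.7 against NIH3T3, 4 of the 6 passed and 4 to 5 without 1 sample, counting ENSMUST00000083061, which is given as a description only. Over all features 36 passed, with 28 to 38 without 1 sample. 

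Values that changed sign had not passed. At day 16, ENSMUST00000083015 became 0.56, 0.17 and 0.38 and ENSMUST00000082493 0.58, 0.19 and 0.10 after median centring, mean centring and quantile normalization. In the difference of effects, ENSMUST00000083061 became 0.30, 0.25 and 0.36 and ENSMUST00000083015 0.66, 0.61 and 0.66. Without 1 sample, ENSMUST00000083274 ran from −0.51 to 0.66, ENSMUST00000083061 from −0.70 to 0.062 and ENSMUST00000083015 from −0.18 to 0.11 in that difference, and ENSMUST00000083015 from −0.18 to 0.035 between the lines. The cause was not tested. Groups share replicate numbers, but nothing says that a number marks a shared source, and deviations of same-numbered samples correlated between −0.36 and 0.33. With the replicate block, ENSMUST00000083274 and ENSMUST00000082493 did not pass between the sets (adjusted p 0.066 each, and 0.10 and 0.056 with title numbers), and ENSMUST00000083274 passed between the lines (adjusted p 0.033). A planned count test was not run: the whole multiples were used for counting error and the comparison of replicates only, since 67 to 72 features a sample are fewer than the criterion set for treating the values as counts.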
